A study of Mus musculus with 31 samples.

Results

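The smoke response of wild-type (WT) alveolar macrophages (AM) was compared between an acute exposure of 7 days and a chronic exposure of 4 months, gene by gene. The members were the 15 WT libraries of a series of 31, and every gene of the deposited count table that could be tested in them, 13197 of 13521. All mice were male C57BL/6 from a colony, young adult at the start and matched for age between CS and control. There were 4 groups: 3 controls and 4 mice exposed to cigarette smoke (CS) at 7 days, and 4 controls and 4 CS mice at 4 months, with 1 library per mouse. CS was mixed sidestream and mainstream smoke of research cigarettes, given in the chamber of a smoking machine on consecutive days in the short arm and with rest days each week in the long arm. AM were the cells pelleted from a lavage of the whole lung, without sorting, so other lavaged cells were read with them, and the hour of lavage was not given in the sources used here.

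AM live in the airspace, where they clear inhaled particles, surfactant and dead cells, and they are long-lived and renew themselves in place. Smoke brings them oxidants, reactive aldehydes and particles. Oxidants and damaged proteins are known to induce antioxidant enzymes through the transcription factor Nrf2, cytosolic chaperones through heat shock factors, and chaperones of the endoplasmic reticulum (ER) through the unfolded protein response, in which the sensors Ire1 (through Xbp1), Atf6 and Perk take part. Macrophages also hold a circadian clock, in which Clock and Arntl (BMAL1) drive the Per and Cry repressors and the output factors Dbp and Tef, so clock genes move with the hour as well as with a treatment.

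Each CS group was set against the controls of its own time point, and the difference was the 4-month effect minus the 7-day effect. A call needed a change of 1.5-fold or more and an adjusted p below 0.05. Effects are log2 fold changes ± SE and p-values are from edgeR's quasi-likelihood test, adjusted by Benjamini-Hochberg over all 13197 genes, while levels are CPM, the share of a library's reads scaled to a common total with TMM factors, and are not corrected for gene length. The 7-day and 4-month effects share no library, only the estimate of spread. Genes called at 1 time point only were named acute only or chronic only, those called in the same direction at both were named sustained, and those called in opposite directions were named reversed.

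More genes were called with CS at 4 months than at 7 days. At 7 days 456 genes were called, 3.46% of those tested, 182 of them higher and 274 lower with CS. At 4 months 882 genes were called, 6.68% of those tested, 384 higher and 498 lower. The 7-day test had 3 controls and the 4-month test 4. Genes at an unadjusted p under 0.05 in edgeR's test numbered 3957 at 7 days and 4089 at 4 months. Groups did not overlap in 20.8% and 23.0% of genes. The classes held 298 acute only (2.26%), 724 chronic only (5.49%), 156 sustained (1.18%) and 2 reversed (0.0152%) genes. The effects at the 2 times were weakly related over all genes (Pearson r = 0.29 across 13197 genes, which are not independent replicates). Of the 7-day calls 34.2% were called in the same direction at 4 months, and of the 4-month calls 17.7% were called in the same direction at 7 days.

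A class drawn from calls does not show that the response differed, so the difference was tested for every gene. It was called for 288 genes, 2.18% of those tested, with 145 higher and 143 lower at 4 months relative to 7 days. These held 73 of the 298 acute only genes, 139 of the 724 chronic only genes, 20 of the 156 sustained genes, both reversed genes, and 54 genes that were called at neither time. Most acute only and chronic only genes therefore had no called difference. Many leaned the same way at the other time. Of the 182 genes higher with CS at 7 days, 78.6% had a positive effect at 4 months, against 51.8% of all genes, and of the 498 genes lower at 4 months, 86.9% had a negative effect at 7 days, against 50.6% of all genes. The calls of the difference were fragile. Leaving out replicate 1 of the 7-day controls left 0 of them by edgeR, with a smallest adjusted p of 0.0538 and 2178 genes at an unadjusted p under 0.05, while leaving out replicate 2 of the same group gave 579. DESeq2 on all 15 libraries called 431.

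**Figure D1:**
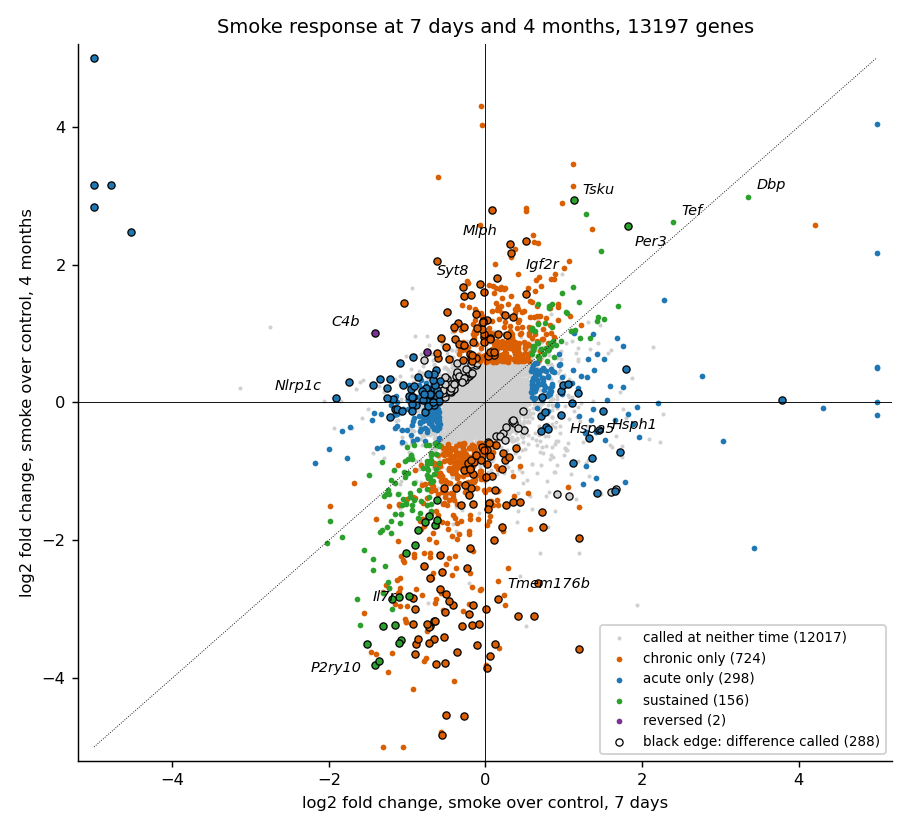
Each point is 1 of 13197 genes, placed by its log2 fold change with CS at 7 days (x axis) and at 4 months (y axis), coloured by class, with a black edge where the difference was called (288 genes). Clock genes (Dbp, Tef, Per3) lie high at both times, chaperones (Hspa5, Hsph1) lie to the right near the horizontal line, and Syt8, Igf2r, Mlph and Tmem176b lie near the vertical line. The 11 genes beyond ±5 are drawn at the edge.

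The difference can come from the smoke groups, from the control groups, or from both. In the 129 acute only genes that were higher with CS, the median of the CS groups was lower at 4 months than at 7 days by a log2 change of -0.43, and the median of the controls was 0.30 higher. In the 395 chronic only genes that were lower with CS, the CS groups were lower at 4 months (median -0.67) and the controls higher (0.41). In the 329 chronic only genes that were higher with CS the CS groups were higher at 4 months (0.83), while the controls went both ways, with 71 called higher and 49 lower (median 0.095). Among the 52 of these with a called difference the controls were lower (median -0.37). The controls of the 2 times differed at 3323 genes, 25.2% of those tested, with 1661 higher and 1662 lower at 4 months. In them age and any difference in when the libraries were made cannot be told apart.

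**Figure D2:**
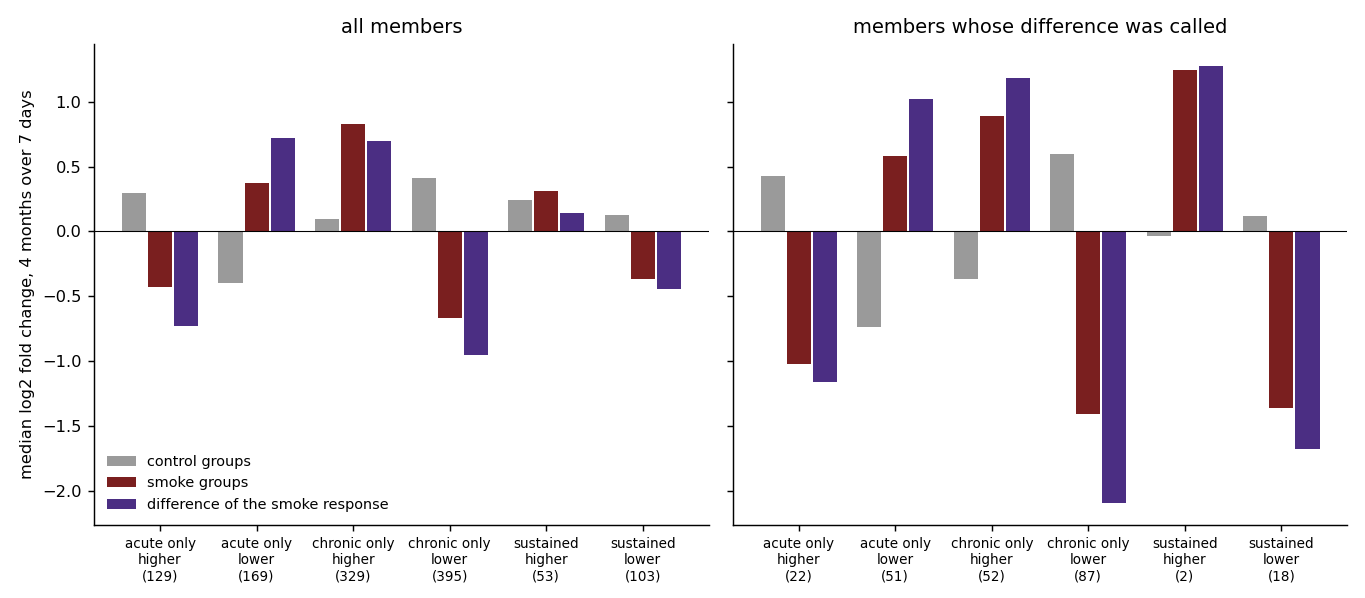
Bars give the median log2 change from 7 days to 4 months over the members of each class and direction, in the control groups (grey), in the CS groups (dark red) and in the difference of the smoke response (purple). The left panel holds all members and the right panel those whose difference was called. Among the 87 called chronic only genes lower with CS, the CS groups moved by -1.41 and the controls by 0.60.

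Clock genes moved with CS at both times. Of 16 clock genes tested, 7 rose and 2 fell at 7 days (all genes: 1.38% higher, 2.08% lower), and 9 rose and 2 fell at 4 months (all genes: 2.91% higher, 3.77% lower). Sustained genes made up 8 of the 16, against 1.18% of all genes, with medians over the list of 0.47 at 7 days and 0.70 at 4 months. All 9 calls at 7 days and 10 of the 11 at 4 months were kept with every library left out in turn. The E-box CACGTG is the letter pattern that Clock and Arntl bind, and the D-box TTATGNAA is bound by Dbp, Tef and the repressor Nfil3. They are shown for an output gene and a period gene of the list. The lines give the 250 bases before 1 of the 2 RefSeq starts of Tef (chr15:81802423-81802672, plus strand) and before the RefSeq start of Per3 (chr4:151044666-151044915, minus strand), on GRCm38.p6, 5′ to 3′, with the E-box of Tef and both D-boxes of Per3 in capitals. The stretch of Tef lies inside the gene span given below, which begins upstream of this RefSeq start.
Tef: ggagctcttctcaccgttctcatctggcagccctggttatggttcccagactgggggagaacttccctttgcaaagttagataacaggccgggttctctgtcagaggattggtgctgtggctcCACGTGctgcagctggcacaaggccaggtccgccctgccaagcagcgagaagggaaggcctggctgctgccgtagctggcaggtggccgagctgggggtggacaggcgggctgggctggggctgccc
Per3: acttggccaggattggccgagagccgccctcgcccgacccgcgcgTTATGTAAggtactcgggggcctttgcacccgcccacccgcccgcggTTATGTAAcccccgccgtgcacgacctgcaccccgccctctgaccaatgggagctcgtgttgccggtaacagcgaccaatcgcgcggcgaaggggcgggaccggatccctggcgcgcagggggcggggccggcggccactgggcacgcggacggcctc
The E-box lies 127 bases before this Tef start, and the D-boxes 205 and 158 bases before the Per3 start, overlapping no other motif searched. The other Tef start has an E-box 138 bases before it. Counted on both strands, 7.15% of 32851 promoters held an E-box and 3.38% a D-box. By gene 8.09% and 3.99% of 27025 genes held them, and 4 and 2 of the 13 clock genes with a promoter in the table. A match is a description of letters, not of binding.

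Tef (chr15:81802421-81826861), an output factor of the clock, stood at 19.9, 24.8 and 21.9 CPM in the 7-day controls and 110.4, 122, 117 and 118 CPM in the 7-day CS mice. Its 4-month levels were 27.1, 21.8, 23.3 and 20.7 CPM in controls and 150, 144, 135 and 136 CPM with CS. The CS and control groups were far apart at both times and hardly varied within a group (log2 fold change 2.39 ± 0.09, adjusted p = 5.43e-11 at 7 days and log2 fold change 2.61 ± 0.08, adjusted p = 2.13e-12 at 4 months). The response did not pass the test of a difference (difference 0.22 ± 0.12, adjusted p = 0.278). Dbp (chr7:45705088-45710155), a factor of the same family, had 2.12, 3.73 and 2.4 CPM in 7-day controls and 28.2, 23.8, 30.4 and 30.9 CPM with CS. In the 4-month controls it stood at 3.16, 3.43, 3.58 and 2.4 CPM, and in the 4-month CS mice at 25.7, 28.3, 24.4 and 22.4 CPM, so its groups did not overlap at either time (log2 fold change 3.35 ± 0.17, adjusted p = 3.1e-09, and log2 fold change 2.99 ± 0.15, adjusted p = 1.31e-09). Its difference was -0.37 ± 0.23, adjusted p = 0.375.

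Per3 (chr4:151003652-151044665), a period gene, had 6.59, 8.72 and 8.54 CPM in 7-day controls and 29, 31.9, 26.6 and 25.1 CPM with CS. At 4 months its levels were 6.48, 5.29, 5.0 and 4.54 CPM in controls and 35.4, 30.5, 27.1 and 31.8 CPM with CS. The CS levels were alike at both times and the 4-month controls lay lowest, and Per3 was the 1 clock gene with a response called larger at 4 months (difference 0.74 ± 0.17, adjusted p = 0.0314, called in 8 of the 15 leave-one-out fits). Per2, the main period repressor, stood at 46.5, 43, 43 and 48.4 CPM in 7-day CS mice and 96, 94.5, 65.7 and 85.9 CPM in 4-month CS mice, against means of 16.2 ± 2.89 and 18.6 ± 3.34 CPM in controls (SD, n = 3 and 4). Its effect was 1.48 ± 0.15 and then 2.19 ± 0.14, and the difference missed the threshold (adjusted p = 0.0556). Arntl and Nfil3, named after their values were seen, were the 2 that fell at both times. Arntl fell from 16.2 ± 2.29 to 8.04 ± 0.835 CPM at 7 days and from 24.8 ± 2.48 to 8.95 ± 2.43 CPM at 4 months (mean ± SD), and Nfil3 had effects of -1.21 ± 0.11 and -1.71 ± 0.10.

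Nr1d1 (Rev-erb alpha, the nuclear receptor that represses Arntl) left the pattern of the other clock genes. Its levels were 26.2, 16.4 and 17.1 CPM in 7-day controls and 63.3, 64.8, 69.2 and 78.5 CPM with CS. At 4 months they were 30.4, 24.9, 21.4 and 24.6 CPM in controls and 32.6, 35.9, 21.9 and 50.9 CPM with CS. CS and control were apart at 7 days and overlapped at 4 months, where 1 CS library lay below 3 of the controls. The effect of 1.79 ± 0.22 at 7 days (adjusted p = 0.000336) stood against 0.49 ± 0.19 at 4 months (adjusted p = 0.0937), and the difference was called (difference -1.31 ± 0.29, adjusted p = 0.0259, in 12 of 15 leave-one-out fits). Nr1d1 overlaps another gene of the table, as Dbp does, and counting by strand was not stated, so reads of overlapping partners cannot be told apart. The hour at which each group was lavaged was not given in the sources used here, so time of day and CS cannot be told apart for these genes.

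**Figure D3:**
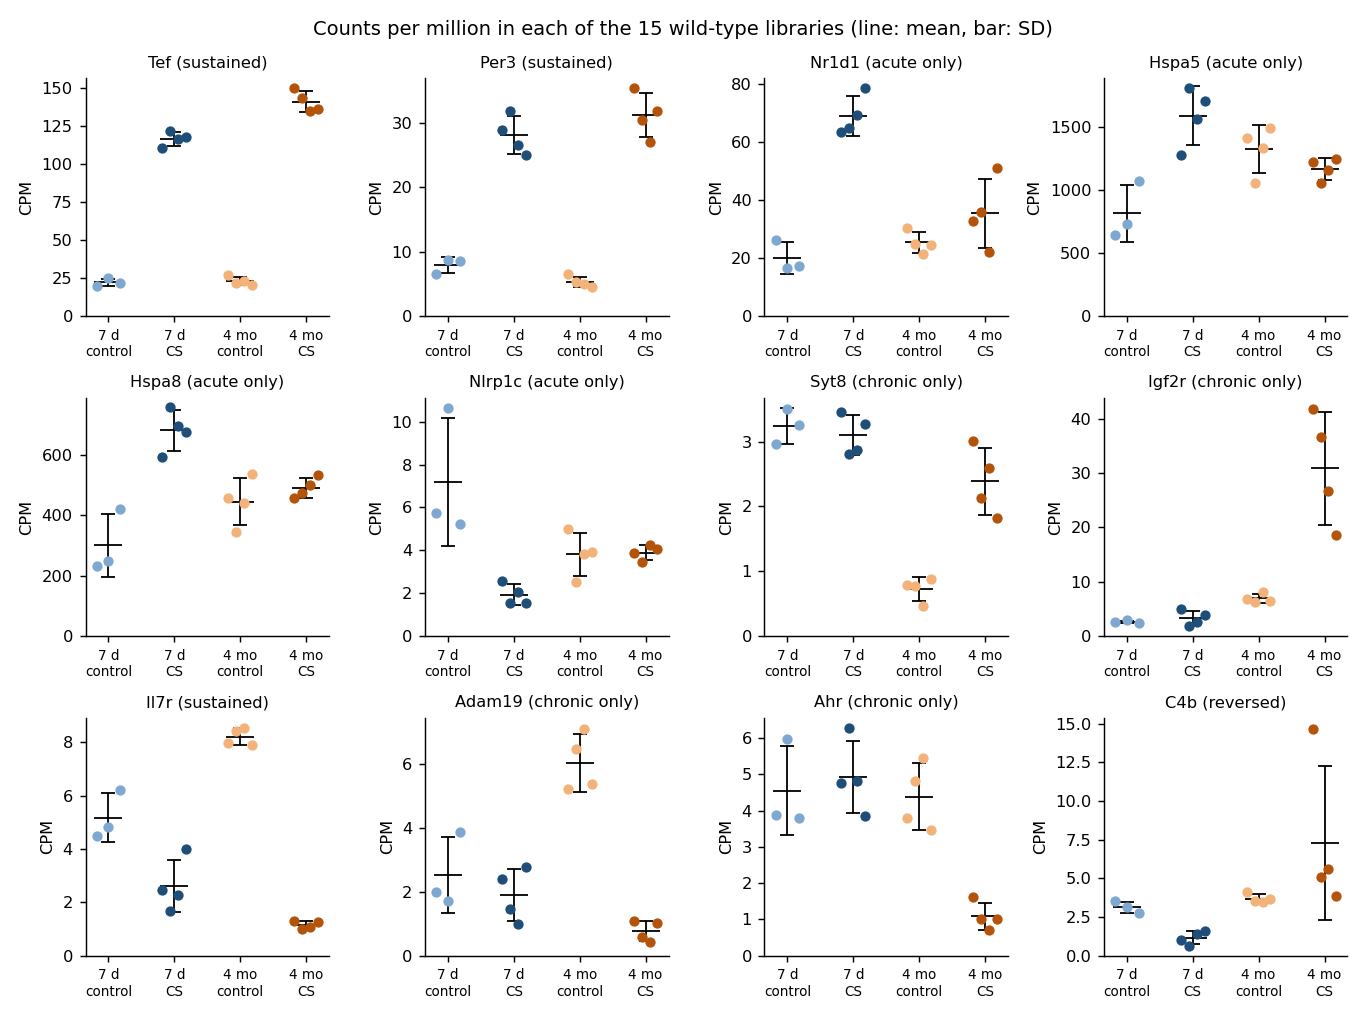
Each point is 1 WT library, in CPM on a linear axis from 0, for 12 genes in the 4 groups; lines are means and bars SD (n = 3 in 7-day controls, 4 in the other groups). Tef and Per3 are high in both CS groups, Nr1d1, Hspa5 and Hspa8 rise with CS at 7 days only, and Syt8 and Igf2r rise and Il7r, Adam19 and Ahr are lowest with CS at 4 months.

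Chaperones rose at 7 days and were not called higher at 4 months. Of 25 heat shock and co-chaperone genes tested, 10 rose at 7 days, 0 rose and 1 fell at 4 months by edgeR, and 9 had a called lower difference (all genes: 1.38%, 2.91%, 3.77% and 1.08%). The median over the list was 0.56 at 7 days, 0.0036 at 4 months and -0.60 for the difference (medians over all genes are near 0), and 23 of the 25 were lower in the difference at an unadjusted p under 0.05. At 4 months 3 were higher at an unadjusted p under 0.05, and DESeq2 called 0 higher. Of these genes 19 had non-overlapping groups at 7 days and 3 at 4 months, where 20.8% and 23.0% of all genes did. From 7 days to 4 months the CS groups were lower (median -0.47) while the controls were a little higher (0.19). The count of 9 was 0 without any 1 of 7-day control replicates 0 or 1, 7-day CS replicate 1, 4-month control replicate 3 or 4-month CS replicates 0 or 1, and 15 without 7-day control replicate 2. At 7 days the count of 10 ranged from 7 to 17, lowest without 7-day control replicate 0 or 1 or 7-day CS replicate 1 and highest without 7-day control replicate 2.

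Hspa8, the constitutive cytosolic Hsp70, stood at 233, 247 and 421 CPM in 7-day controls and 593, 760.4, 698 and 676 CPM with CS. The 4-month controls had 456, 346, 442 and 537 CPM and the 4-month CS mice 456, 473, 502 and 533 CPM. The libraries of CS and control were apart at 7 days, with 7-day control replicate 2 above the other controls, and overlapped at 4 months (log2 fold change 1.18 ± 0.17, adjusted p = 0.000995, then log2 fold change 0.14 ± 0.16, adjusted p = 0.585; difference -1.04 ± 0.23, adjusted p = 0.0272, in 9 of 15 fits). Hsph1, an Hsp110 that recharges Hsp70, had 46.6, 67.7 and 129 CPM in 7-day controls, 162, 278, 209 and 271 CPM in 7-day CS, 122, 67.8, 109 and 175 CPM in 4-month controls and 88.9, 86.9, 121 and 136 CPM in 4-month CS. It was likewise lowest in 7-day controls and highest in 7-day CS, with more scatter (1.5 ± 0.33 and -0.13 ± 0.29; difference -1.63 ± 0.43, adjusted p = 0.0447, in 4 fits). Hsp90aa1, the inducible cytosolic Hsp90, moved by 1.1 ± 0.20 (adjusted p = 0.00309) and then by -0.0049 ± 0.18 (adjusted p = 0.991), with the difference called in 6 fits. Hspd1, the mitochondrial chaperonin, moved by 0.72 ± 0.10 and 0.075 ± 0.10, with the difference called in 9 fits. Dnajb1, an Hsp40 that serves Hsp70, was called lower with CS at 4 months (-0.66 ± 0.17, adjusted p = 0.0104) and not called at 7 days (0.39 ± 0.18), and its difference was called (-1.05, in 8 fits).

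The inducible Hsp70 genes Hspa1a and Hspa1b had the widest swing and were called at neither time. Hspa1a had 13.3, 42.2 and 91.3 CPM in 7-day controls and 103, 167, 127 and 199 CPM with CS. After 4 months the levels were 63.3, 20.7, 78.7 and 119 CPM in controls and 16.3, 24.3, 42.3 and 31.3 CPM with CS. The controls of each time spread widely, and CS lay above them at 7 days and among or below them at 4 months (1.61 ± 0.53 and -1.3 ± 0.50, neither called). The difference was called for Hspa1a (-2.91 ± 0.73, adjusted p = 0.0374) and Hspa1b (-2.93 ± 0.76, adjusted p = 0.0419), each in 5 of 15 leave-one-out fits. These 2 genes are near-identical copies, and the authors removed reads that aligned at several places, so both are uncertain, and Gm20481, which lies across Hspa1a on the opposite strand, gave a like value (-2.95 ± 0.70), so the 3 are not separate findings.

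ER chaperones took a like course in their medians. Of 35 ER chaperone and Xbp1 target genes tested, 13 rose at 7 days and 1 at 4 months, and 6 had a called lower difference (all genes: 1.38%, 2.91% and 1.08%). The list median was 0.36 at 7 days, 0.065 at 4 months and -0.35 for the difference, and 28 of 35 genes were lower in the difference at an unadjusted p under 0.05, against 1263 of all 13197. At 4 months 9 were higher and 4 lower at an unadjusted p under 0.05. In this list 24 genes had non-overlapping groups at 7 days and 14 at 4 months, where 20.8% and 23.0% of all genes did. The 7-day calls ranged from 10 to 13 with 1 library left out. The 6 called differences fell to 0 without 7-day control replicate 1 and rose to 10 without 7-day control replicate 2. The ER stress element is the letter pattern through which Atf6 and Xbp1 act, and Hspa5 (BiP), the main ER chaperone, is shown as the gene of this list with the largest called difference. The line gives the 250 bases before its RefSeq start (GRCm38.p6, chr2:34771840-34772089, plus strand), 5′ to 3′, with the element in capitals.
Hspa5: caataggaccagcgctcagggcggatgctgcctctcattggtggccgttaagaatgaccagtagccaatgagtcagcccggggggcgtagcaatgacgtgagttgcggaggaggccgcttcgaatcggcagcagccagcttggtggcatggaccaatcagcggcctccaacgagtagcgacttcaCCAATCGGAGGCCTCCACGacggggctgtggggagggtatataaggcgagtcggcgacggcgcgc
The element begins 65 bases before this RefSeq start and overlaps no other motif searched. The gene span given below for Hspa5 begins within this stretch, upstream of the element. On both strands the element was found in 0.119% of 32851 promoters. By gene it was found in 0.137% of 27025 genes, and in 9 of the 29 genes of this list that have a promoter in the table.

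Hspa5 (chr2:34771970-34776531) had 646, 732 and 1069 CPM in 7-day controls and 1278, 1813, 1566 and 1711 CPM with CS. At 4 months it had 1413, 1056, 1336 and 1491 CPM in controls and 1224, 1053, 1160 and 1247 CPM with CS. The groups were apart at 7 days and overlapped at 4 months, with the 4-month controls between the 7-day groups (log2 fold change 0.97 ± 0.16, adjusted p = 0.00172, then log2 fold change -0.18 ± 0.14, adjusted p = 0.428; difference -1.14 ± 0.21, adjusted p = 0.0178, in 14 of 15 fits). Between the times the control groups differed by 0.70 (adjusted p = 0.000985) and the CS groups by -0.44, so the larger share of this difference lay in the controls. Manf, a secreted protein induced by ER stress, had 121, 133 and 169 CPM in 7-day controls, 189, 262, 242 and 267 CPM in 7-day CS, 137, 102, 108 and 134 CPM in 4-month controls and 97.2, 88.5, 85 and 105 CPM in 4-month CS. Here the mean of 4-month CS was the lowest of the 4 groups (0.77 ± 0.14 and -0.35 ± 0.13; difference -1.12 ± 0.19, adjusted p = 0.0178, in 14 fits). Dnajb9 (ERdj4), a cofactor of Hspa5, moved by 0.72 ± 0.12 and -0.20 ± 0.11 (difference -0.92 ± 0.16, adjusted p = 0.0178, in 14 fits). Sec23b, of the coat of vesicles that leave the ER, moved by 0.38 ± 0.06 at 7 days, under the fold required for a call.

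The branch of the ER stress response that runs through Perk and Atf4 did not share this course. Of 24 genes tested, 1 rose at each time (all genes: 1.38% and 2.91%). By edgeR 0 had a called difference (all genes: 2.18%), where DESeq2 called 1 and 5 passed an unadjusted p under 0.05. Atf4 stood at 209 ± 11.8 and 209 ± 25.6 CPM in 7-day controls and CS and at 183 ± 14.4 and 144 ± 3.98 CPM at 4 months (mean ± SD), effects of -0.0044 and -0.35 ± 0.08. Eif2ak3, which encodes Perk, had effects of 0.016 and -0.27 ± 0.07, and neither gene reached the fold for a call.

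Nrf2 targets lay higher with CS as a list at 7 days and less so at 4 months, but few differed between the times by the test. Of 34 genes tested, 8 rose at 7 days, 3 rose at 4 months and 1 had a called lower difference (all genes: 1.38%, 2.91% and 1.08%). Of the 34, 1 fell under the expression filter without the 7-day CS libraries and 1 without the 7-day controls. Nothing is drawn from the values of such genes. All 34 had a positive effect at 7 days (median 0.54) and 25 at 4 months (median 0.16), with 22 and 4 genes in non-overlapping groups (all genes: 20.8% and 23.0%). The 8 calls at 7 days became 2, 3, 5 and 4 without 7-day control replicates 0 and 1 and 7-day CS replicates 2 and 3, and 13 without 4-month control replicate 1. The 3 calls at 4 months became 6 without 4-month control replicate 2. The antioxidant response element core TGACNNNGC is the pattern bound by Nrf2, and it is shown for Txnrd1, thioredoxin reductase, as a gene of this list that rose at 7 days. The line gives the 250 bases before 1 of the 3 RefSeq starts of Txnrd1 (GRCm38.p6, chr10:82858956-82859205, plus strand), 5′ to 3′, with the core, read on the other strand, in capitals.
Txnrd1: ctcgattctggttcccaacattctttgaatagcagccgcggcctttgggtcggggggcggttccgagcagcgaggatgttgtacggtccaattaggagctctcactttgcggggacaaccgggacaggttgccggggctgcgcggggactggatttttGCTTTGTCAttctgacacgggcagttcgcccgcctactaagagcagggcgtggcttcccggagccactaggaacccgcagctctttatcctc
The core lies 92 bases before this start and the other starts hold none in this window. It was found in 12.4% of 32851 promoters on both strands, so it is common. By gene it was found in 14% of 27025 genes and in 11 of 29 genes of the list with a promoter.

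Txnrd1 had 273, 382 and 385 CPM in 7-day controls and 616, 536, 548 and 640.4 CPM with CS. Its 4-month levels were 543, 386, 727 and 597 CPM in controls and 569.8, 711, 779 and 570.3 CPM with CS. CS and control were apart at 7 days only (log2 fold change 0.76 ± 0.17, adjusted p = 0.0106, then log2 fold change 0.22 ± 0.16, adjusted p = 0.363), and the difference did not pass (difference -0.53 ± 0.23, adjusted p = 0.201). Sqstm1 (p62), an adaptor for autophagy that is itself a target of Nrf2, followed the same order, with effects of 0.97 ± 0.20 (adjusted p = 0.00577) and 0.13 ± 0.18 and a difference of -0.85 ± 0.27 (adjusted p = 0.0789). Hmox1, heme oxygenase 1, had 797, 1683 and 1902 CPM in 7-day controls, 2605, 2354, 2845 and 3494 CPM in 7-day CS, 1922, 768, 2998 and 2306 CPM in 4-month controls and 1015, 1642, 2028 and 1194 CPM in 4-month CS. Its 7-day groups did not overlap, yet the scatter of the 4-month controls was wide and it was called at neither time (adjusted p = 0.0889, 0.387 and 0.109 for 7 days, 4 months and the difference). Gstm1, a glutathione transferase, and Ephx1, microsomal epoxide hydrolase, both named after their values were seen, were the sustained members of the list. Gstm1 rose by 0.59 ± 0.17 and 1.08 ± 0.16 and Ephx1 by 0.63 ± 0.17 and 1.03 ± 0.15, and neither difference was called (adjusted p = 0.239 and 0.332).

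Cbr2, a carbonyl reductase abundant in airway club cells, was the 1 gene of the Nrf2 list with a called difference. It had 12.8, 17.4 and 16.5 CPM in 7-day controls and 58.7, 47.1, 37 and 27.8 CPM with CS. In the 4-month controls it stood at 8.14, 2.78, 7.45 and 4.79 CPM, and in the 4-month CS mice at 2.95, 2.72, 4.03 and 7.07 CPM. The 7-day CS libraries stood above all others (difference -1.86 ± 0.47, adjusted p = 0.0389, in 5 of 15 fits). The club cell secretoglobins moved with it. Scgb3a1 had 15.8, 18.9 and 20.4 CPM in 7-day controls, 96.6, 53.9, 63 and 29.6 CPM in 7-day CS, 3.32, 1.83, 4.55 and 4.54 CPM in 4-month controls and 1.4, 1.3, 0.863 and 4.72 CPM in 4-month CS (difference -2.45 ± 0.62, adjusted p = 0.0397, in 5 fits). Scgb1a1 had 102, 86.8 and 118, then 215, 210.2, 120.2 and 136, then 49.5, 20.9, 34.2 and 30.9, and in 4-month CS 6.07, 7.46, 8.05 and 16.9 CPM. It was called lower with CS at 4 months (-1.81 ± 0.31, adjusted p = 0.000601), with a called difference (-2.54 ± 0.42, adjusted p = 0.0178, in 14 fits).

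Of 19 airway epithelial markers tested, 9 rose at 7 days, 1 rose and 1 fell at 4 months, and 4 had a called lower difference (all genes: 1.38% higher at 7 days, 1.08% lower in the difference). Of the 19, 3 passed the expression filter only with the 7-day CS libraries, and nothing is drawn from the calls of such genes. Their summed level was 804 to 885 CPM in 7-day controls, 780 to 5200 in 7-day CS, 305 to 439 in 4-month controls and 249 to 343 in 4-month CS, with 3 markers at 0 in some library. The highest sum was in 7-day CS replicate 0, which also held gland secretory transcripts at 2290 CPM where no other library passed 12.7 CPM. With 1 library left out the 7-day calls ranged from 3 to 11, with 3 and 4 without 7-day control replicates 0 and 1, and the called differences ranged from 0 to 7. Without 7-day CS replicate 0 they were 5 and 3. Lavage carries shed airway cells, and the part of these cells in the results for Cbr2 and the secretoglobins was not tested.

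The 169 acute only genes that fell had controls that were lower at 4 months than at 7 days (median -0.40) and CS groups that were higher (0.37). Nlrp1c, at the locus of the Nlrp1 inflammasome sensors, had 5.75, 10.6 and 5.22 CPM in 7-day controls and 2.55, 1.53, 2.07 and 1.53 CPM with CS. The 4-month controls had 4.98, 2.54, 3.81 and 3.91 CPM and the 4-month CS mice 3.87, 3.43, 4.24 and 4.04 CPM. The libraries of CS and control were apart at 7 days and overlapped at 4 months (log2 fold change -1.91 ± 0.27, adjusted p = 0.000894, then log2 fold change 0.07 ± 0.24, adjusted p = 0.885; difference 1.98 ± 0.37, adjusted p = 0.0178, in 14 of 15 fits), and between the times controls moved by -0.96 and CS by 1.02. Vasn, a membrane protein that binds TGF-beta, moved by -1.74 ± 0.31 and 0.29 ± 0.27 (difference 2.03 ± 0.42, adjusted p = 0.0213, in 12 fits). Yod1, a deubiquitinase, moved by -1.25 ± 0.19 and 0.07 ± 0.17 (difference 1.33 ± 0.25, adjusted p = 0.0201, in 13 fits). The predicted gene Gm8995 moved by -1.25 ± 0.24 and 0.20 ± 0.20 (difference 1.46 ± 0.32, adjusted p = 0.0254, in 11 fits). All these lay at or below 27.7 CPM in every library, and Vasn and Yod1 overlap other genes of the table.

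Hbb-b1, a beta globin of red cells, had a difference that rested on few libraries. It had 387, 44.4 and 9.77 CPM in 7-day controls, 4.53, 7.8, 4.07 and 5.09 CPM in 7-day CS, 2.92, 0.177, 0.625 and 0.126 CPM in 4-month controls and 0.644, 0.237, 26.7 and 0.404 CPM in 4-month CS. 7-day control replicate 0 and 4-month CS replicate 2 stood far above their groups (difference 7.93 ± 1.96, adjusted p = 0.0356, in 5 of 15 fits). Of 9 red cell and platelet genes, 6 fell at 7 days and 5 had a called higher difference (all genes: 2.08% and 1.10%). Without 7-day control replicate 0 the counts were 0 and 0, and the 5 were 0 in 10 of the 15 leave-one-out fits. Without the 7-day controls, where these genes are high, 2 of the 9 fell under the expression filter, and without the 4-month CS libraries 1 did. Nothing is therefore drawn from these counts. Their summed level was 36.6 to 713 CPM in 7-day controls and 22.6 to 28.6 CPM in 7-day CS, and how far red cells in the lavage entered these values was not tested.

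Late in the exposure a set of genes rose that had not been called at 7 days. Of the 329 chronic only genes higher with CS, 52 had a called difference, and 247 had a positive effect at 7 days too. Syt8, a synaptotagmin of vesicle traffic, had 2.96, 3.51 and 3.26 CPM in 7-day controls and 3.46, 2.82, 2.87 and 3.27 CPM with CS. After 4 months the levels were 0.79, 0.768, 0.455 and 0.883 CPM in controls and 3.01, 2.13, 2.59 and 1.82 CPM with CS. The 4-month controls lay below every other group, and the mean of 4-month CS, 2.39 ± 0.521 CPM, lay below 3.24 ± 0.274 and 3.1 ± 0.311 CPM in 7-day controls and CS (-0.066 ± 0.20, then log2 fold change 1.72 ± 0.22, adjusted p = 5.5e-05; difference 1.78 ± 0.29, adjusted p = 0.0178, in 14 of 15 fits). The controls moved by -2.15 and the CS groups by -0.37. Igf2r, which carries mannose 6-phosphate enzymes to lysosomes, was of another kind. It had 2.48, 2.85 and 2.46 CPM in 7-day controls, 4.94, 1.85, 2.54 and 3.85 CPM in 7-day CS, 6.88, 6.32, 8.13 and 6.43 CPM in 4-month controls and 41.8, 36.7, 26.7 and 18.5 CPM in 4-month CS. Both groups were higher at 4 months and the CS group far more so (log2 fold change 2.17 ± 0.23, adjusted p = 1.09e-05; difference 1.84 ± 0.41, adjusted p = 0.0285, in 8 fits), by 1.41 in controls and 3.24 with CS. The antisense transcript Airn is known at this locus and its reads cannot be told apart from those of Igf2r where counting ignores strand.

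Mlph, melanophilin, which links Rab27a vesicles to myosin, had 8.22, 20.3 and 8.91 CPM in 7-day controls and 14.9, 9.09, 9.75 and 28.5 CPM with CS. At 4 months it had 17.5, 21.4, 11.7 and 12.4 CPM in controls and 94.5, 84.4, 64.1 and 70.4 CPM with CS. The 4-month CS libraries stood above all the others (log2 fold change 2.3 ± 0.32, adjusted p = 9.76e-05; difference 1.99 ± 0.48, adjusted p = 0.0339, in 6 fits). Epas1, the hypoxia factor HIF-2 alpha, had 186, 220.2, 181 and 133 CPM in 4-month CS against 48.4, 84.4, 53.1 and 54.4 CPM in controls and 27.5 to 46.8 CPM at 7 days (0.52 ± 0.18, then log2 fold change 1.57 ± 0.16, adjusted p = 6.81e-06; difference 1.05 ± 0.23, adjusted p = 0.0284, in 9 fits). Adcy4, an adenylyl cyclase, rose by 2.35 ± 0.30 at 4 months (difference 1.82 ± 0.46, in 6 fits). B430306N03Rik rose by 1.81 ± 0.25 (difference 1.65 ± 0.37, in 9 fits). The long noncoding Snhg11 rose by 1.67 ± 0.27 (difference 1.95 ± 0.42, in 13 fits).

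The PPAR and fatty acid list showed no common course, with 2 of 19 genes lower at 7 days, 1 higher and 1 lower at 4 months (median -0.012) and 1 with a called higher difference (all genes: 2.08%, 2.91%, 3.77% and 1.10%). The last was Fabp4. This gene, the fatty acid binding protein of mature AM, had 102, 112 and 145 CPM in 7-day controls and 95, 71.8, 100.4 and 125 CPM with CS. Its 4-month levels were 74.4, 134, 114 and 79.2 CPM in controls and 204, 182, 215 and 118 CPM with CS. The groups overlapped at both times, and Fabp4 was called at 4 months (log2 fold change 0.83 ± 0.21, adjusted p = 0.00931) with a difference at the edge of the threshold (adjusted p = 0.0491, in 3 fits). Gpnmb, a glycoprotein of macrophages under lysosomal load, rose from 937 ± 98.1 to 2004 ± 389 CPM at 4 months (1.1 ± 0.13), and its 7-day effect of 0.56 ± 0.14 lay just under the fold for a call. Its difference did not pass (adjusted p = 0.103). Acp5, tartrate-resistant acid phosphatase, was sustained (0.59 ± 0.11 and 1.06 ± 0.10). Of 35 lysosomal genes, 3 rose at 7 days and 5 at 4 months (all genes: 1.38% and 2.91%), all 35 had a positive effect at 4 months and 33 at 7 days (6840 and 6513 of all 13197), and 0 had a called difference by edgeR or DESeq2, with 6 at an unadjusted p under 0.05. The summed level of 23 AM identity markers was 22900 to 27600 CPM in controls and 28800 to 33000 CPM with CS at 7 days, and 26600 to 30500 and 34400 to 37600 CPM at 4 months, so these markers were high in all groups. The sum was higher with CS at both times through Chi3l3, which held 52.8% of it, and without Chi3l3 the ranges overlapped, at 12320 to 14809 and 12355 to 13789 CPM at 7 days and 13488 to 16995 and 15475 to 17013 CPM at 4 months, controls first.

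Only 2 of the 53 sustained genes higher with CS had a called difference, Per3 and Tsku. Tsku, a secreted protein of the small leucine-rich family, had 1.88, 2.63 and 2.33 CPM in 7-day controls and 5.43, 3.94, 5.48 and 5.16 CPM with CS. In the 4-month controls it stood at 3.63, 2.98, 3.98 and 2.65 CPM, and in the 4-month CS mice at 25.9, 33.9, 29.4 and 11.7 CPM. The groups were apart at both times and the late gap was wider (1.13 ± 0.33 and 2.94 ± 0.25; difference 1.81 ± 0.42, adjusted p = 0.0314, in 9 fits). Awat1, an acyltransferase that makes wax esters, rose by 1.28 ± 0.33 and 2.74 ± 0.25 without a called difference (adjusted p = 0.064).

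Several of the named late losses are genes known from other myeloid and lymphoid cells. Of the 395 chronic only genes lower with CS, 87 had a called difference, with a median of -0.38 at 7 days and -1.27 at 4 months over the 395. Il7r, the interleukin 7 receptor of lymphoid cells, is not among the 395, since it was called lower at both times and so was sustained. It had 4.47, 4.83 and 6.21 CPM in 7-day controls and 2.47, 1.69, 2.27 and 4.0 CPM with CS. The 4-month controls had 7.98, 8.42, 8.53 and 7.88 CPM and the 4-month CS mice 1.29, 1.01, 1.08 and 1.28 CPM. CS and control were apart at both times and all 4 late CS libraries were alike (log2 fold change -0.98 ± 0.21, adjusted p = 0.00723, then log2 fold change -2.81 ± 0.21, adjusted p = 3.31e-07; difference -1.83 ± 0.30, adjusted p = 0.0178, in 14 of 15 fits). Adam19, a membrane metalloproteinase, had 2.0, 1.7 and 3.87, then 2.39, 1.45, 1.0 and 2.76 CPM at 7 days, and at 4 months 5.22, 6.47, 7.11 and 5.36 CPM in controls and 1.07, 0.592, 0.431 and 1.01 CPM with CS. Its 7-day groups overlapped and its 4-month groups were far apart (-0.41 ± 0.34, then log2 fold change -2.93 ± 0.33, adjusted p = 1.75e-05; difference -2.52 ± 0.49, adjusted p = 0.0201, in 14 fits). Tmem176b, a membrane protein of dendritic cells and monocytes, moved by 0.16 ± 0.27 and -2.85 ± 0.34 (difference -3.01 ± 0.45, adjusted p = 0.0178, in 14 fits). Hpgd, which degrades prostaglandins, moved by -0.71 ± 0.31 and -3.25 ± 0.45 (difference -2.54 ± 0.57, adjusted p = 0.0285, in 9 fits), and its controls stood at 14.4 ± 5.07 CPM at 7 days and 5.19 ± 2.15 CPM at 4 months (adjusted p = 0.00049 for controls).

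The complement C1q chains, made by tissue macrophages and monocyte-derived cells, were lower with CS at 4 months as 1 unit. C1qa had 5.02, 5.21 and 5.96 CPM in 7-day controls and 3.38, 1.45, 1.47 and 8.73 CPM with CS. After 4 months the levels were 8.06, 7.62, 6.08 and 5.3 CPM in controls and 0.43, 0.237, 0.431 and 0.876 CPM with CS. At 7 days 1 CS library exceeded every control, and at 4 months the CS libraries lay at or below 0.876 CPM (log2 fold change -3.79 ± 0.52, adjusted p = 9.76e-05; difference -3.27 ± 0.70, adjusted p = 0.0234, in 11 fits). C1qb (difference -3.63 ± 0.77, adjusted p = 0.0226) and C1qc (difference -2.77 ± 0.74, adjusted p = 0.0458), the latter named after its values were seen, moved alike.

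Dendritic cell genes lay lower with CS at both times and were called lower mainly at 4 months. Of 14 tested, 2 fell at 7 days and 12 at 4 months, against 2.08% and 3.77% of all genes, and 4 had a called lower difference (1.08% of all genes), with medians of -0.71, -1.61 and -0.94. Of the 14, 1, Xcr1, passed the expression filter only with the 4-month controls, where its reads were most. Nothing is drawn from its call at 4 months. The 12, Xcr1 among them, were kept with every library left out in turn. The 4 became 0 without 7-day control replicate 0 or 1 or 4-month CS replicate 0 and 1 without 4-month CS replicate 1. The 2 at 7 days became 8 without 7-day CS replicate 3. At 7 days 13 of the 14 had a negative effect (50.6% of all genes). At an unadjusted p under 0.05, 10 were lower at 7 days and 6 in the difference (all 13197 genes: 1995 and 1263). The summed level of these 14 genes was 206 to 246 and 137 to 192 CPM in 7-day controls and CS, and 239 to 413 and 162 to 189 CPM at 4 months. In bulk RNA, fewer cells of a type and less RNA per cell cannot be told apart. Fscn1, the actin bundler of mature dendritic cells, had 11.1, 20.2 and 21.4 CPM in 7-day controls and 10.4, 5.07, 6.95 and 14.8 CPM with CS. At 4 months it had 15.2, 23.2, 17.5 and 10.8 CPM in controls and 1.56, 2.07, 1.01 and 2.63 CPM with CS. The 7-day groups overlapped and the 4-month groups did not (log2 fold change -3.21 ± 0.36, adjusted p = 1.75e-05; difference -2.29 ± 0.49, adjusted p = 0.0234, in 12 fits). Flt3, the growth factor receptor of dendritic cells, moved by -0.72 ± 0.35 and -3.26 ± 0.40 (difference -2.54 ± 0.55, adjusted p = 0.0254), and Cd209a, a lectin of the same cells, by 0.41 ± 0.48 and -3.1 ± 0.53 (difference -3.51 ± 0.74, adjusted p = 0.0226). Ccr7, the receptor for migration to lymph nodes, was called lower at both times (-1.08 ± 0.34 and -3.44 ± 0.37; difference -2.36 ± 0.52, adjusted p = 0.0261, in 11 fits). Its 7-day call was kept in 7 of 15 fits, and DESeq2 did not call it at 7 days (adjusted p = 0.0756).

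Lymphocyte genes were read from few counts. Of 24 listed 10 could be tested, and 5 of these, Cd3e among them, passed the expression filter only with the 4-month controls, where their reads were most. A gene kept through the group where it is high had to differ, so nothing is drawn from the counts of this list, in which 2 fell at 7 days and 8 at 4 months and 4 had a called lower difference (all genes: 2.08%, 3.77% and 1.08%). Cd3e, a chain of the T cell receptor complex, had 0.474, 0.709, 0.568 and 1.58 CPM in 4-month controls and 0.0537, 0.118, 0.0719 and 0 CPM with CS, 65 and 4 reads in all, against 9 and 22 reads at 7 days, and it could be tested in 12 of the 15 leave-one-out fits. Thy1, a surface protein of T cells, changed by -1.36 ± 0.35 at 7 days and by -3.76 ± 0.37 at 4 months (difference -2.4 ± 0.55, adjusted p = 0.0305). The called differences of this list were 0 without 7-day control replicate 1, 1 without 4-month CS replicate 0, 2 without 7-day CS replicate 3 and 6 without 7-day control replicate 2. The part of lymphocyte and dendritic cell numbers in the lavage was not tested.

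MHC class II genes, which present antigen, fell at both times. Of 12 tested, 6 fell at 7 days and 11 at 4 months (all genes: 2.08% and 3.77%), with medians of -0.87 and -1.29, and 0 had a called difference by edgeR, where DESeq2 called 2 and 3 passed an unadjusted p under 0.05. H2-Aa, the class II alpha chain, named after its values were seen, had 636, 601 and 493 CPM in 7-day controls and 217, 212, 357 and 251 CPM with CS. Its 4-month levels were 1964, 1089, 1371 and 1351 CPM in controls and 551, 268, 421 and 649 CPM with CS. The libraries of CS and control were apart at both times, and the mean of late CS, 472 ± 165 CPM, lay below that of the 7-day controls, 576 ± 74.6 CPM (-1.15 ± 0.25 and -1.61 ± 0.23). Cd74, the invariant chain, likewise named, had effects of -1.02 ± 0.23 and -1.46 ± 0.22, with means of 1507 ± 192 and 4223 ± 995 CPM in the 7-day and 4-month controls. H2-Ob and H2-DMb2, which adjust peptide loading, moved by -1.02 ± 0.49 and -0.71 ± 0.15 at 7 days and by -3.19 ± 0.41 and -1.38 ± 0.15 at 4 months. The summed level of the 12 genes was 7570 to 7990 and 5810 to 7570 CPM at 7 days, and 10900 to 14900 and 6400 to 8160 CPM at 4 months, controls first. In controls 7 of the 12 were called higher at 4 months than at 7 days (12.6% of all genes).

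Of the 103 sustained genes lower with CS, 18 had a called difference, each lower at 4 months. Monocyte genes went both ways. Of 20 monocyte and other macrophage genes, 2 fell at 7 days, 2 rose and 7 fell at 4 months, and 6 had a called lower difference (all genes: 2.08%, 2.91%, 3.77% and 1.08%), while the median of the difference was -0.11, with 8 genes higher and 12 lower. The 6 became 0 without 7-day control replicate 0 or 1 or 4-month CS replicate 0, 1 without 4-month CS replicate 1, and 3 without 7-day CS replicate 2 or 4-month control replicate 0 or 3. Of the 20 genes, 2 fell under the expression filter without the 4-month controls, 1 without the 7-day CS and 1 without the 4-month CS libraries. Nothing is drawn from the calls of such genes. Ccr2, the receptor that draws monocytes from blood, had 20.3, 24 and 24.8 CPM in 7-day controls and 14.6, 12.6, 11.9 and 12 CPM with CS. In the 4-month controls it stood at 21.3, 18.4, 20.9 and 16.6 CPM, and in the 4-month CS mice at 5.32, 3.96, 4.46 and 7.68 CPM. The groups were apart at both times (-0.86 ± 0.15, then -1.85 ± 0.15; difference -0.99 ± 0.22, adjusted p = 0.0254, in 11 fits). S100a4, a calcium-binding protein of motile cells, changed by -1.16 ± 0.27 and -3.23 ± 0.31 (difference -2.06 ± 0.42, adjusted p = 0.0213, in 13 fits). P2ry10, a lysophospholipid receptor of leukocytes, had 2.96, 5.1 and 4.18 CPM in 7-day controls, 1.48, 1.05, 1.0 and 2.62 CPM in 7-day CS, 8.69, 7.77, 11.8 and 10 CPM in 4-month controls and 0.483, 0.592, 0.575 and 1.08 CPM in 4-month CS. Its groups were apart at both times (-1.41 ± 0.30 and -3.81 ± 0.30; difference -2.41 ± 0.44, adjusted p = 0.0178, in 14 fits). Cacnb3, a calcium channel subunit, changed by -1.3 ± 0.29 and -3.25 ± 0.34, Atp2b4, a calcium pump of the plasma membrane, by -1.64 ± 0.28 and -2.86 ± 0.26, and Traf1, an adaptor of TNF receptors, by -1.19 ± 0.35 and -3.0 ± 0.40. Their differences had adjusted p-values of 0.033, 0.0859 and 0.0721.

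Inflammatory genes showed no common course. Of 31 genes of TNF, IL-1 and NF-kB signalling, 3 rose and 1 fell at 7 days, 2 rose and 3 fell at 4 months, and 1 had a called lower difference (all genes: 1.38%, 2.08%, 2.91%, 3.77% and 1.08%). With 1 library left out the genes called higher at 7 days ranged from 1 to 5. Tnf had 16.6, 21.4 and 23.1 CPM in 7-day controls and 49.9, 34.4, 30.6 and 41.5 CPM with CS. The 4-month controls had 20.9, 13.4, 31.6 and 21.6 CPM and the 4-month CS mice 37, 26.4, 20.9 and 41.3 CPM. Its groups were apart at 7 days and overlapped at 4 months (log2 fold change 0.94 ± 0.26, adjusted p = 0.0263, then log2 fold change 0.54 ± 0.24, adjusted p = 0.128), and the difference did not pass (difference -0.40 ± 0.35, adjusted p = 0.549). Of 16 chemokine genes 3 rose and 1 fell at 7 days and 4 rose and 6 fell at 4 months (all genes: 1.38%, 2.08%, 2.91% and 3.77%). With 1 library left out those called higher ranged from 0 to 5 at 7 days and from 2 to 4 at 4 months. Ccl3, a chemokine for monocytes, and Icam1, an adhesion molecule, both named after their values were seen, rose at both times, Ccl3 by 1.09 ± 0.32 and 1.04 ± 0.29 and Icam1 by 0.61 ± 0.11 and 0.79 ± 0.10. Il12b, the p40 chain of interleukins 12 and 23, moved by -0.86 ± 0.47 at 7 days and fell by a log2 change of -3.44 ± 0.46 at 4 months (difference -2.58 ± 0.69, adjusted p = 0.0472, in 3 fits). Of 31 interferon-stimulated genes, 0 were called at 7 days by edgeR or DESeq2, with 5 at an unadjusted p under 0.05, and 1, lower, at 4 months, and 0 had a called difference by edgeR or DESeq2, with 2 at an unadjusted p under 0.05. Over all genes 3.46% were called at 7 days, 3.77% were called lower at 4 months and 2.18% had a called difference.

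Immediate early genes, which macrophages induce within minutes of a signal, were called lower mainly at 4 months. Of 25 genes, 1 rose and 1 fell at 7 days and 10 fell at 4 months, and 2 had a called lower difference (all genes: 1.38%, 2.08%, 3.77% and 1.08%). The 2 became 0 without 7-day control replicate 0 or 1 or 4-month CS replicate 0 and 5 without 4-month control replicate 1. Jun had 46.9, 55.8 and 65.9 CPM in 7-day controls and 67.8, 69.6, 54.7 and 76.7 CPM with CS. After 4 months the levels were 81.2, 56.9, 103 and 93 CPM in controls and 47, 51.5, 41.5 and 45.8 CPM with CS. The 4-month groups were apart and the 7-day groups overlapped (0.26 ± 0.16, then -0.84 ± 0.15; difference -1.09 ± 0.22, adjusted p = 0.0213, in 12 fits). Nr4a3, an orphan nuclear receptor of this group, moved by -0.90 ± 0.33 and -3.0 ± 0.33 (difference -2.09 ± 0.47, adjusted p = 0.0287, in 9 fits). Ahr, the receptor for polycyclic aromatic hydrocarbons such as those of smoke, had 3.87, 5.98 and 3.81 CPM in 7-day controls and 4.77, 6.28, 4.81 and 3.85 CPM with CS. At 4 months it had 3.79, 4.81, 5.46 and 3.47 CPM in controls and 1.61, 1.01, 0.719 and 1.01 CPM with CS. The first 3 groups overlapped and the last lay below them all (log2 fold change 0.11 ± 0.23, adjusted p = 0.8, then log2 fold change -1.99 ± 0.25, adjusted p = 5.13e-05; difference -2.1 ± 0.34, adjusted p = 0.0178, in 14 of 15 fits).

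Of 17 genes of LXR signalling and lipid efflux, 0 were called at 7 days by edgeR or DESeq2, with 7 at an unadjusted p under 0.05, and at 4 months 1 rose and 6 fell, while 2 had a called lower difference, 0 without 7-day control replicate 1 or 4-month CS replicate 0. Over all genes 3.46% were called at 7 days, 2.91% rose and 3.77% fell at 4 months, and 1.08% had a called lower difference. Apoe, which carries cholesterol out of macrophages, had 67.9, 66.6 and 76.3 CPM in 7-day controls and 92.4, 59.4, 73.9 and 72.8 CPM with CS. Its 4-month levels were 117, 131, 73.7 and 113 CPM in controls and 44.2, 74.1, 48.5 and 40 CPM with CS. The 4-month groups overlapped by 1 library each (-1.07 ± 0.18, adjusted p = 0.000664; difference -1.16 ± 0.27, adjusted p = 0.0314, in 9 fits). Scd2, a fatty acid desaturase, moved by -0.053 ± 0.12 and -0.83 ± 0.11 (difference -0.78 ± 0.16, adjusted p = 0.0213, in 12 fits). In 4 lists no gene was called in any direction at either time or for the difference by edgeR, where 3.46%, 6.68% and 2.18% of all genes were. They were proteasome (32 genes), cholesterol synthesis (23 genes), cell cycle (32 genes) and metallothioneins and zinc (8 genes). Unadjusted p-values under 0.05 numbered 16, 8, 8 and 1 in them at 7 days, 2, 6, 17 and 2 at 4 months and 9, 3, 12 and 1 for the difference, and DESeq2 called 0 in each. Over all 13197 genes they numbered 3957, 4089 and 2844. All 32 proteasome genes had a positive effect at 7 days (median 0.19) and 12 at 4 months (median -0.023). In the difference 31 were lower (6359 of all genes). Their groups did not overlap in 14 genes at 7 days and 0 at 4 months (all genes: 20.8% and 23.0%).

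**Figure D4:**
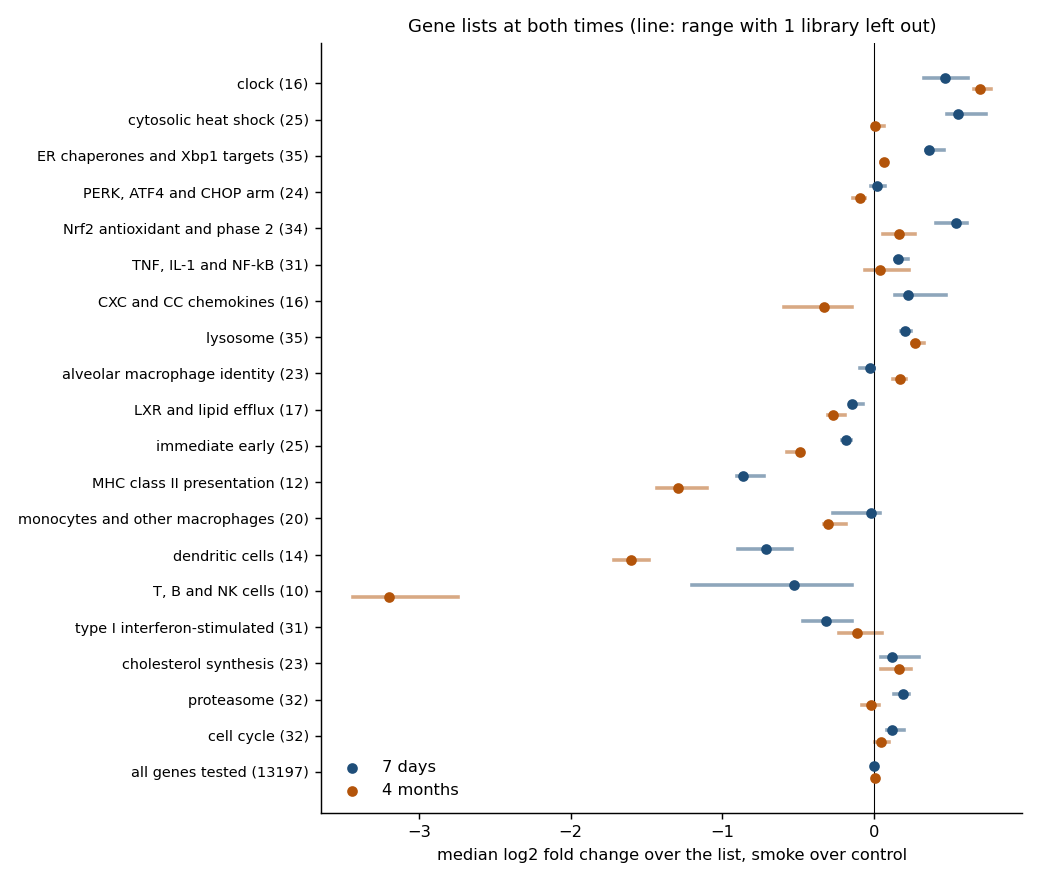
Points give the median log2 fold change with CS over each gene list at 7 days (blue) and at 4 months (orange), with the number of genes tested in parentheses, and lines the range of that median when each of the 15 libraries is left out. Heat shock and ER chaperone lists lie at 0.56 and 0.36 at 7 days and near 0 at 4 months, clock genes lie above 0 at both, and dendritic cell and MHC class II lists lie below 0 at both and lowest at 4 months.

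Both reversed genes, 0.0152% of those tested, were called lower at 7 days and higher at 4 months by edgeR. C4b, complement component 4, had 3.51, 3.13 and 2.77 CPM in 7-day controls and 0.988, 0.644, 1.4 and 1.6 CPM with CS. In the 4-month controls it stood at 4.11, 3.51, 3.47 and 3.66 CPM, and in the 4-month CS mice at 14.7, 5.09, 5.61 and 3.84 CPM. Every CS library lay below the controls at 7 days, and 3 of the 4 lay above every control at 4 months, with 4-month CS replicate 0 far above its group (log2 fold change -1.41 ± 0.44, adjusted p = 0.0421, then log2 fold change 1.01 ± 0.32, adjusted p = 0.0351; difference 2.42 ± 0.54, adjusted p = 0.0284, in 11 of 15 fits). The noncoding E130102H24Rik, named after its values were seen, had 2.9, 2.74 and 2.03 CPM in 7-day controls and 1.24, 2.09, 1.2 and 1.6 CPM with CS. The 4-month controls had 0.553, 0.886, 0.966 and 0.631 CPM and the 4-month CS mice 1.34, 1.42, 1.29 and 1.15 CPM, so the CS groups overlapped and the 4-month controls lay below all others (-0.74 ± 0.23 and 0.73 ± 0.24; difference 1.47 ± 0.34, adjusted p = 0.0293, in 8 fits). The calls that define this class were fragile. C4b was called in 6 of 15 fits at 7 days and 10 at 4 months, and E130102H24Rik in 7 and 5. DESeq2 called C4b at both times and E130102H24Rik at neither (adjusted p = 0.0649 and 0.0915). With 1 library left out the number of reversed genes ranged from 0 to 8. The 54 genes with a called difference but no call at either time all had opposite signs at the 2 times, 38 higher and 16 lower at 4 months relative to 7 days, with medians of 0.67 and -0.66.

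The calls at each time were steadier than those of the difference. With 1 library left out the 7-day calls ranged from 203 to 664 and the 4-month calls from 735 to 950, and 130 and 616 genes stayed called in all 15 fits. For the difference 0 genes stayed called in all 15, 30 were called in 14 and 104 in at least 10. Of the 288 genes, 284 kept the sign of the difference in all 15 fits and 280 kept an unadjusted p under 0.05 in all. The 7-day controls were the group with 3 libraries, and leaving out replicates 0, 1 and 2 of it gave 67, 0 and 579 called differences. Leaving out 4-month CS replicates 0 and 1 gave 36 and 92.

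**Figure D5:**
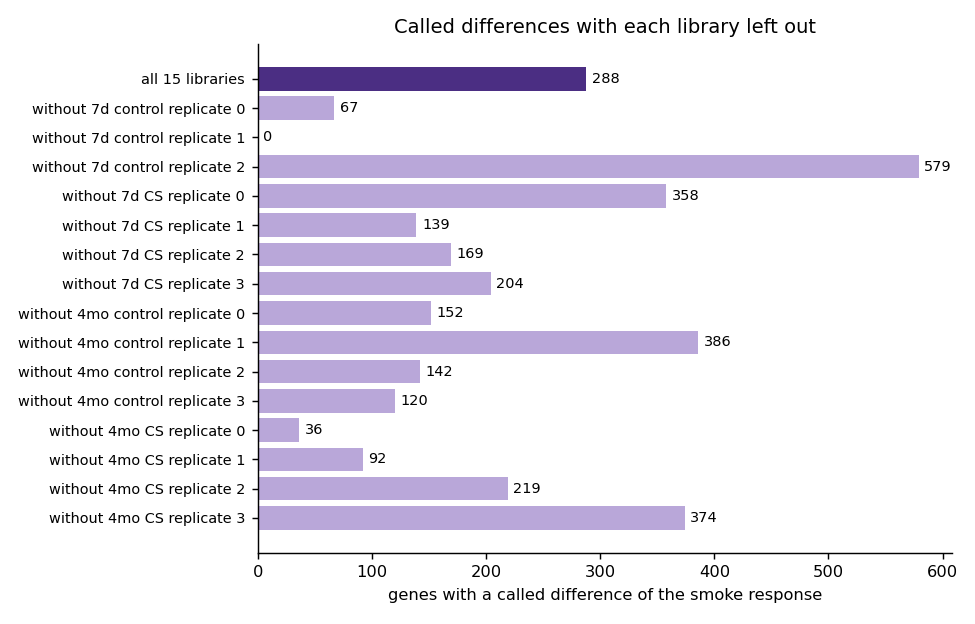
Bars give the number of genes whose smoke response was called different between 4 months and 7 days, with all 15 libraries (288) and with each library left out in turn. The count runs from 0 without 7-day control replicate 1 to 579 without 7-day control replicate 2.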

How the data were processed

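RNA of lavaged alveolar macrophages was read as oligo dT-selected TruSeq libraries, single-end. The authors mapped reads to mm10 (Novoalign), dropped those that aligned at several places and deposited raw counts of reads per gene in 1 table of 13521 genes. Counting by strand was not stated, and 4375 genes overlap another listed gene. The table also holds the authors' own fold changes and FDR values, which were not used. Columns of the other 16 libraries entered only an alternative fit.

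The 15 wild-type libraries held 11666879 to 34492288 counts each. Genes were filtered by filterByExpr (13197 kept), scaled by TMM and fitted with edgeR 4.0.16 in R 4.3.3 (quasi-likelihood, 1 coefficient per group). CPM used the TMM factors. Called meant an adjusted p below 0.05 and at least 1.5-fold. Members and gene lists were chosen with earlier results of these data known, and 701 of 784 list names matched. Named genes were, per class and direction, the 5 largest changes with non-overlapping groups, for acute only and chronic only a called difference, and a mean log2 CPM no lower than 1; the 10 largest called differences each way; the 4 smallest p-values for the difference in each list described; genes the study names; and 10 genes chosen after their values were seen. The text describes a selection of them. On simulated counts the script was tested before use. Alternatives were DESeq2 1.42.0, its size factors in edgeR, a minimum of 20 counts, no filter, no fold minimum, all 31 libraries, each time alone, a replicate block and each library left out.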

Additional observations from a re-analysis of the deposited data

Results flagged for a closer look

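The smoke response was called different between 4 months and 7 days in 55 of the 81 genes described, by the test of the difference. In log2 units, the 4-month effect lay below the 7-day effect in Cd3e (-4.78), C1qb (-3.63), Cd209a (-3.51), C1qa (-3.27), Tmem176b (-3.01), Gm20481 (-2.95), Hspa1b (-2.93), Hspa1a (-2.91), C1qc (-2.77), Il12b (-2.58), Scgb1a1 (-2.54), Flt3 (-2.54), Hpgd (-2.54), Adam19 (-2.52), Scgb3a1 (-2.45), P2ry10 (-2.41), Thy1 (-2.40), Ccr7 (-2.36), Fscn1 (-2.29), Ahr (-2.10), Nr4a3 (-2.09), S100a4 (-2.06), Cacnb3 (-1.95), Cbr2 (-1.86), Il7r (-1.83), Hsph1 (-1.63), Nr1d1 (-1.31), Apoe (-1.16), Hspa5 (-1.14), Manf (-1.12), Hsp90aa1 (-1.11), Jun (-1.09), Dnajb1 (-1.05), Hspa8 (-1.04), Ccr2 (-0.99), Dnajb9 (-0.92), Scd2 (-0.78) and Hspd1 (-0.64). It lay above in Hbb-b1 (7.93), C4b (2.42), Vasn (2.03), Mlph (1.99), Nlrp1c (1.98), Snhg11 (1.95), Igf2r (1.84), Adcy4 (1.82), Tsku (1.81), Syt8 (1.78), B430306N03Rik (1.65), E130102H24Rik (1.47), Gm8995 (1.46), Yod1 (1.33), Fabp4 (1.12), Epas1 (1.05) and Per3 (0.74). Cd3e, with 4 reads in 4-month CS, passed the expression filter only with the 4-month controls, where it is high. Hspa1a and Hspa1b are near-identical and Gm20481 overlaps Hspa1a, and Hbb-b1 was called in 5 of the 15 fits with 1 library left out. None of these calls was kept in all 15 of those fits.

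In groups of 4, a library was set apart when its gap to the nearest other passed Dixon's limit, which chance passes in about 1 of 20 groups; here 21 of 273 groups did (7.69%). Among levels in CPM at 4 months these were Arntl in CS replicate 2 (12.6), Hbb-b1 in CS replicate 2 (26.7), Scgb3a1 in CS replicate 3 (4.72), Acp5 in CS replicate 3 (428), Hpgd in CS replicate 3 (0.943), Tmem176b in CS replicate 3 (0.943) and control replicate 1 (4.70), Adcy4 in control replicate 1 (2.30), Epas1 in control replicate 1 (84.4), Scd2 in CS replicate 0 (119) and C4b in CS replicate 0 (14.7). At 7 days they were Scd2 in CS replicate 3 (145), S100a4 in CS replicate 2 (17.4), H2-DMb2 in CS replicate 3 (7.64) and Ltf in CS replicate 0 (2759). Among summed levels they were airway markers (5199 CPM) and gland secretory genes (2285 CPM) in 7-day CS replicate 0, red cell genes in 7-day CS replicate 1 (28.6 CPM) and 4-month CS replicate 2 (66.9 CPM), gland secretory genes in 4-month control replicate 3 (2.65 CPM) and MHC class II genes in 4-month control replicate 0 (14876 CPM).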

How the results depend on the processing

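Of the called effects of the genes described, only that of Ltf changed sign under the alternatives run: 4.31 ± 1.37 at 7 days (adjusted p = 0.0462) and -0.38 to 4.71 with 1 library left out, lowest without 7-day CS replicate 0, the library that held 2759 CPM of it. DESeq2 called 431 differences (276 shared with the 288; 234 lower, and 219 in chronic only genes), and its size factors in edgeR left 1 reversed gene, with a called difference (1). Fitting all 31 libraries gave 105 differences (97 shared; 47 higher, 58 lower), 20, 63 and 5 of them in acute only, chronic only and sustained genes, and 0 reversed genes (0 with a called difference). Requiring 20 counts in every library, which tests 11016 genes, gave 186 differences (78 lower), 483 calls at 4 months (245 higher, 238 lower), 370 chronic only genes (70 with a called difference), 12 sustained genes with one and 0 reversed genes (0 with one). Without the fold minimum there were 1791 calls at 7 days (856 higher, 935 lower), 2483 at 4 months (1398 higher, 1085 lower), 7838 between controls (3934 higher, 3904 lower), 511 differences (283 higher, 228 lower), 1202 acute only genes (187 with a called difference), 1894 chronic only (256), 566 sustained and 23 reversed (23). The labels state no pairing of same-numbered libraries. Their residual correlations ran from -0.07 to 0.19, and those of differently numbered pairs from -0.22 to 0.097. At 4 months the highest values, 0.19 and 0.12, were of same-numbered pairs, so a pairing was not settled. With a replicate block 233 differences were called, 174 of them shared. This fit gave 365 calls at 7 days, 870 at 4 months and 2530 between controls. Its classes held 234 acute only, 739 chronic only, 129 sustained and 2 reversed genes.

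With 1 library left out, calls ranged from 203 to 664 at 7 days (77 to 245 higher, 126 to 419 lower), 735 to 950 at 4 months (309 to 429 higher, 426 to 521 lower), 2881 to 3394 between controls (1396 to 1685 higher, 1485 to 1752 lower), and 0 to 579 for the difference (0 to 326 higher, 0 to 253 lower). Acute only genes ranged from 126 to 491 (0 to 186 with a called difference), chronic only from 599 to 817 (0 to 210), sustained from 75 to 168 (0 to 30) and reversed from 0 to 8 (0 to 8). Without replicates 0, 1 and 2 of the 7-day controls, the group with 3 libraries, 67, 0 and 579 differences were called. Without 4-month CS replicates 0 and 1, from a group with 4 libraries, 36 and 92 were called. The cause of these swings was not tested. Scaling moved the median of all genes by less than 0.1 (log2). Genes under about 1 CPM rest on few reads.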

Other observations

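Neutrophil genes, which enter no comparison above, summed to 193 to 208 CPM in 7-day controls and 249 to 395 CPM in 4-month CS, with 157 to 217 CPM in 4-month controls. In 7-day CS the sum was 189 to 2930 CPM, the highest in replicate 0, where Ltf, a gene that glands also express, was high. Without Ltf the ranges in the same order were 163 to 169, 239 to 388 and 146 to 212 CPM, and 154 to 208 CPM in 7-day CS, so the 4-month CS libraries lay above all others. Of 9 neutrophil genes tested 1 rose and 1 fell at 7 days and 3 rose and 1 fell at 4 months (all genes: 1.38%, 2.08%, 2.91% and 3.77%). By edgeR 0 had a called difference (all genes: 2.18%), where DESeq2 called 1 and 3 passed an unadjusted p under 0.05.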
